A study of Mus musculus with 12 samples.

Results

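The genes of the cytosolic ribosomal proteins were followed through the first hours of systemic inflammation in cerebral vessels of mice. They were chosen by name: protein-coding genes of the GRCm38 annotation whose symbol starts with Rpl or Rps, with Rplp0, Rplp1, Rplp2 and Rpsa, and without the Rps6k kinase genes and the pseudogenes. This gave 86 genes of 54119 genes measured, of which 77 encode usual ribosomal proteins (46 of the large subunit and 31 of the small subunit) and 9 are paralogs or genes that share the name. The vessels were isolated from the forebrain of C57BL6 wild type mice of 2 to 3 months that had received one intraperitoneal injection of lipopolysaccharide (LPS, a cell wall component of Gram-negative bacteria, here from E. coli O55:B5) at 10 mg/kg for 15 min, 30 min or 4 h, or endotoxin-free PBS as control. Each of the 4 groups had 3 RNA-seq libraries, and each library pooled the vessels of 1 male and 1 female mouse, so that a group stood for 6 mice. The sources used here do not state how long after injection the PBS mice were taken, and the 3 LPS times were all compared with the same 3 PBS libraries.

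A ribosome holds a single copy of nearly every ribosomal protein, and the large and the small subunit are assembled in the nucleolus from these proteins and ribosomal RNA. Most ribosomal protein mRNAs are short, very abundant and stable, and they start with a run of pyrimidines (C or U), the 5′ terminal oligopyrimidine (TOP) motif, through which mTOR signalling and the protein Larp1 set how much of them is translated. An mRNA level therefore does not give the rate at which the protein is made. Several ribosomal proteins also have roles outside the ribosome, and Rplp0 is widely used as a reference gene for qPCR, including, with Actb and Gapdh, in the study that produced these libraries.

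To show what the start of such a gene looks like, the 60 bases around the RefSeq transcription start (40 before and 20 from it, GRCm38.p6) are printed for 3 genes that were lower at 4 h of LPS and 3 that were higher, with values given further down. Capitals mark runs of at least 8 pyrimidines (C or T) that touch the stretch from 20 bases before to 20 bases after the start.
Rpl38 (chr11:114668540-114668599, plus strand): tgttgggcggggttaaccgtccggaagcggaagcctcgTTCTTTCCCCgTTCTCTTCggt
Rps21 (chr2:180257339-180257398, plus strand): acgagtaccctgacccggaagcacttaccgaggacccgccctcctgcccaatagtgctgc
Rpl13a (chr7:45128726-45128785, minus strand): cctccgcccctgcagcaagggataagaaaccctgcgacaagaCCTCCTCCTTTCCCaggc
Rplp0 (chr5:115559427-115559486, plus strand): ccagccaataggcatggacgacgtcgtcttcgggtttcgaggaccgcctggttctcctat
Rps2 (chr17:24720023-24720082, plus strand): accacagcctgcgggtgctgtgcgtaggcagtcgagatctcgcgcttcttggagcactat
Rpl7a (chr2:26910767-26910826, plus strand): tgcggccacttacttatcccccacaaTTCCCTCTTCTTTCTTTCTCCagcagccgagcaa

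The run was present in a lower gene (Rpl38, Rpl13a) as in a higher one (Rpl7a). RefSeq promoter entries were matched for 66 of the 86 genes, and 28 of them (42.4%) held such a run, against 16.0% of all 32851 promoters. A run of 8 purines, which is the same motif on the other strand, was found in 4 genes (6.06%), against 17.7% of all promoters. At 4 h the median log2 fold change was 0.14 for the genes with the run and 0.19 for those without it. Annotated starts differ between sources, so a run that is missing from a window does not show that the mRNA lacks the motif.

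In the PBS libraries the ribosomal protein genes were among the abundant transcripts of the vessels. On the TPM scale, a share of transcripts that takes their length into account, the 77 usual members had a median of 671 and ranged from 31.3 to 3034, and 74 of them were at 100 or above. Rpl13a, which also takes part in the interferon-gamma-activated inhibitor of translation complex, was the highest with 3266, 3176 and 2659 TPM in the 3 PBS libraries. Behind it came Rps27rt with 2463, 2561 and 2782 TPM and Rplp1, a protein of the stalk of the large subunit, with 2367, 2458 and 2506 TPM. These neighbours overlapped in their libraries, so their order is not settled. Rps15 and Rps21 followed with means of 1888 and 1869 TPM. The lowest were 3 genes that are not usual ribosomal proteins, Rpl3l (0.43), Rpl39l (1.1) and Rps19bp1 (30.4), followed by Rpl12 (31.3) and Rpl7l1 (32.5). Rpl10l, a retrogene of Rpl10 known from testis, had no counted fragment in any of the 12 libraries and was the only member that did not pass the filter on low counts, which left 85 genes for the tests.

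Rps27rt needs a remark on identity. It is a retrogene of Rps27 (Rps27rt on chr9:114982366-114982739, Rps27 on chr3:90212522-90213651, both on the minus strand), and the annotated coding sequences of both genes are the same in 255 of 255 bases, so fragments from the coding part could be given to either gene. The shared sequence is printed once.
Rps27 and Rps27rt: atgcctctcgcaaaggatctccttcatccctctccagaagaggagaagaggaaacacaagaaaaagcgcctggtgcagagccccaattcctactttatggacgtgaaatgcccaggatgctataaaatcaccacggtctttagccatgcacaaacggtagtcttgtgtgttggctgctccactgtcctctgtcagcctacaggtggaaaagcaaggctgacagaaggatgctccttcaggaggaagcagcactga

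The level of either gene alone is thus uncertain, and the sum of both is the firmer value. On TMM-scaled counts (counts scaled to a common library size by edgeR's trimmed mean of M values, given below as CPM) the sum changed by 0.10, 0.32 and 0.11 on the log2 scale after 15 min, after 30 min and after 4 h.

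Sequencing depth was even, with 18309177 to 25882028 estimated fragments per library, but the makeup of the libraries changed with LPS. With library size as the only scaling, the median gene changed by -0.17 (log2) at 30 min and by -0.71 at 4 h, and the share of counts from mitochondrially encoded genes was 6.43% in PBS, 5.93% at 15 min, 7.78% at 30 min and 9.33% at 4 h. TMM factors are set so that the bulk of genes does not shift, and changes below are relative to that bulk unless another scale is named. Endothelial markers were present (10 genes, summed library CPM 12530 to 12806 in PBS), and so were those of choroid plexus (12067 to 12644).

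Measured as a share of the library, the ribosomal protein genes changed by 0.219% of their PBS share at 15 min, took 5.23% more at 30 min and fell by 31.4% at 4 h. The 86 genes took 1.92%, 1.93% and 1.85% of all counts in the PBS libraries, 1.91%, 1.91% and 1.90% at 15 min, 1.98%, 1.99% and 2.04% at 30 min, and 1.32%, 1.29% and 1.30% at 4 h. The 4 h libraries lay below all others and the 30 min libraries above all PBS libraries, and the mean share at 4 h was 0.686 times that in PBS. In bulk tissue a smaller number of cells of a type and less RNA per cell cannot be told apart, here and in the results that follow. As a share of summed TPM they stood at 6.34% ± 0.09 (SD, n = 3) in PBS and at 6.43% ± 0.06, 6.15% ± 0.11 and 3.70% ± 0.08 at the LPS times in order. The large subunit genes fell by 32.9% in share of counts at 4 h and the small subunit genes by 29.8%, so both subunits lost share. The ratio of summed TPM of the large to the small subunit stayed within 1.37 and 1.42 in all group means. Pseudogenes named after a member, 286 in number, took 0.0787% of the counts in PBS and 0.0513% at 4 h.

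**Figure D1:**
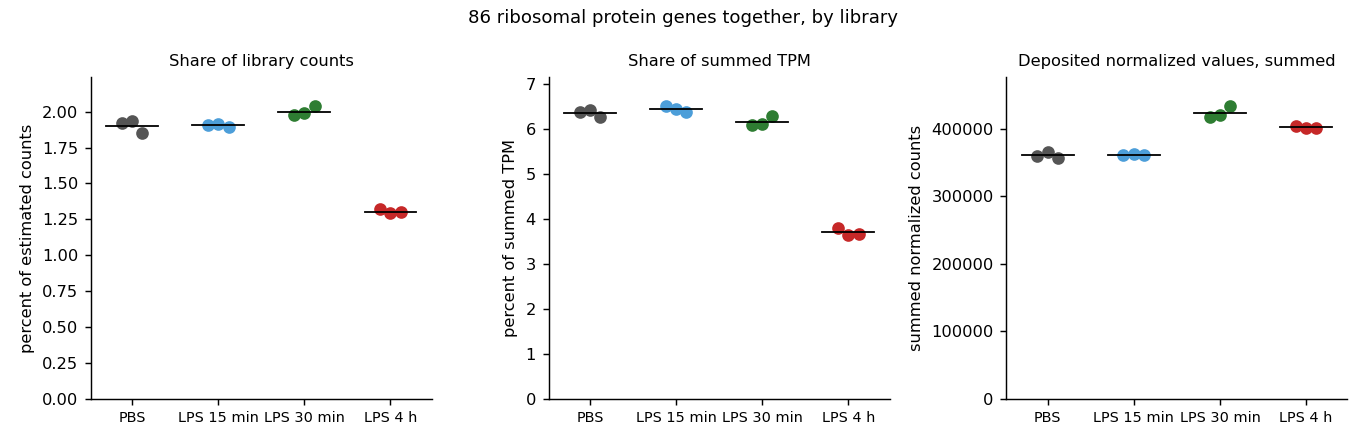
The 86 ribosomal protein genes together in each of the 12 libraries (dots) with the group mean (line), as percent of estimated counts (left), percent of summed TPM (middle) and the sum of the deposited normalized values (right). At 4 h the left and middle panels lie below PBS (1.30% against 1.90% and 3.70% against 6.34%), whereas the right panel lies above PBS (402023 against 360332).

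The direction of the 4 h change thus depended on what the genes were measured against. In the table of normalized counts deposited by the authors, the summed values of the 86 genes had means of 360332 in PBS, 361596 at 15 min, 423372 at 30 min and 402023 at 4 h, a rise of 11.6% at 4 h, while the total of that table rose by 62.7%. With TMM factors the median member changed by 0.03, 0.24 and 0.11 (log2) at the 3 times, beside a median over all 19150 genes tested of -0.00, -0.01 and -0.01. With library size only it changed by 0.01, 0.07 and -0.59, beside -0.03, -0.17 and -0.71 for all genes, and as a ratio of mean TPM by -0.05 at 30 min and -0.75 at 4 h, beside -0.30 and -0.89. Upper quartile factors placed the 4 h median at -0.03, beside -0.16 for all genes. Under each of these scalings the median member stood above the median gene at 30 min and at 4 h, and the fall at 4 h appeared on the scales on which the median gene fell as well. The exception was the limma fit on log2(TPM + 1), in which the pseudocount holds low genes near 0: there the members had a median of -0.75 at 4 h and all genes one of -0.62. Leaving mitochondrially encoded genes out of the total gave a 4 h share ratio of 0.708, and leaving out the 100 most abundant other genes gave 0.741. The part that these shifts in makeup play in the change was not tested further.

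**Figure D2:**
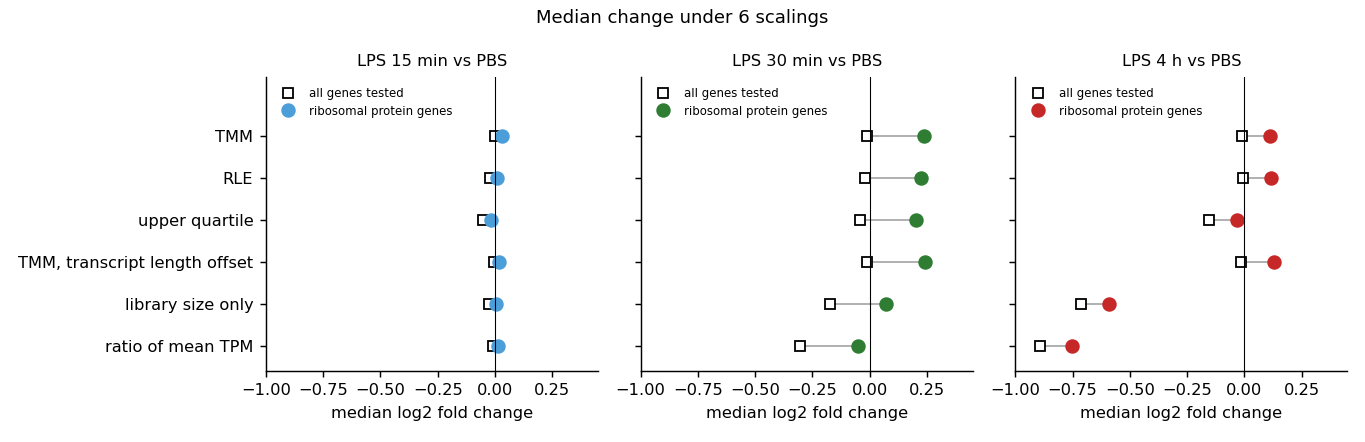
Median log2 fold change against PBS of the ribosomal protein genes (filled circles) and of all genes tested (open squares) under 6 scalings, in a panel for each LPS time. At 4 h the members' median runs from 0.13 with the transcript length offset to -0.75 as a ratio of mean TPM and changes sign between scalings, and in each row it lies to the right of the median of all genes.

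After 15 min the levels had hardly moved. Of the 85 genes tested, 12 were higher (adjusted p below 0.05, edgeR's quasi-likelihood test with Benjamini-Hochberg adjustment over all genes) and 0 were lower, whereas 20.4% of all genes were called higher and 18.2% lower. Beyond 1.5-fold 0 members were called in either direction, against 3.31% and 0.872% of all genes. The 12, named here because they were called, were Rpl6, Rpl8, Rpl10, Rpl10a, Rpl12, Rpl13, Rpl18, Rpl29, Rps6, Rps15a, Rps18 and Rps27a, and 9 of them changed by 0.11 or less on the log2 scale. Rps6, the small subunit protein that S6 kinases phosphorylate downstream of mTOR, had 346, 350 and 344 CPM in PBS and 368, 377 and 372 CPM at 15 min, a change of 0.10 ± 0.02 (SE, adjusted p = 0.0017). Its libraries did not overlap. Rpl10a rose by 0.26 ± 0.06 (adjusted p = 0.00097) and Rpl12, treated below, by 0.64 ± 0.07 (adjusted p = 1.2e-07). The smallest values, from -0.05 for Rpl27a to -0.22 for Rpl39l, with Rpl23, Rpl27 and Rps28 between them, did not pass the test. The PBS library of replicate 3 was low for several short members. Without it 6 members were called higher and 6 lower at 15 min, against 18.3% and 15.6% of all genes.

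After 30 min nearly the whole group had moved up a little relative to the bulk of genes, though not on the TPM scale. The log2 fold change was above 0 in all 85 genes tested, 74 were called higher and 0 lower, against 19.7% and 17.2% of all genes. In 71 of the 85 the 3 LPS libraries lay above the 3 PBS libraries and in 0 below them, against 23.7% and 23.0% of all genes. By subunit, 42 of 46 large subunit genes, 27 of 31 small subunit genes and 5 of the 8 other members tested were called. The sizes were small and close to each other (SD 0.20 between members, 0.70 between all genes). Among the usual genes the SD was 0.08 for the large and 0.09 for the small subunit, against 0.63 for the 8 other members. In a test for a change beyond 1.5-fold (edgeR's glmTreat) 0 members passed, against 3.78% of all genes upward and 0.799% downward. Rps6 rose to 450, 434 and 451 CPM, a change of 0.36 ± 0.02 (adjusted p = 4e-11), and Rplp1 from 379, 395 and 367 to 452, 455 and 487 CPM, a change of 0.29 ± 0.04 (adjusted p = 6.6e-07). In both genes every 30 min library stood above every PBS library. With library size only, 40 members were still called higher and 0 lower, while 2102 of the 19150 genes (11%) were called higher and 7173 (37.5%) lower. In limma on log2(TPM + 1), 2 members were higher and 13 lower (median -0.05), against 6.65% and 44.1% of all genes. The members not called at 30 min included Rpl38 at 0.01, Rps29 at 0.03, Rps28 at 0.06 and Rpl22 at 0.09 among the usual proteins and Rpl7l1 at 0.07 and Rps19bp1 at 0.00 among the others.

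After 4 h the members had spread apart. Relative to the bulk of genes, 48 of the 85 were higher and 18 lower, against 34.9% and 33.7% of all genes, and the SD between members grew to 0.36 (1.46 between all genes). Among the usual genes the SD at 4 h was 0.37 for the large and 0.32 for the small subunit. In 44 of the 85 members the 4 h libraries lay above all PBS libraries and in 15 below them (35.9% and 35.0% of all genes). Of the large subunit genes 25 were higher and 12 lower, and of the small subunit genes 19 were higher and 6 lower. Beyond 1.5-fold, 7 members were higher and 0 lower, against 19.0% and 13.8% of all genes. With library size only, 1 member (Rpl12) was higher and 71 were lower, and 15.6% of all genes were higher and 63.9% lower.

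**Figure D3:**
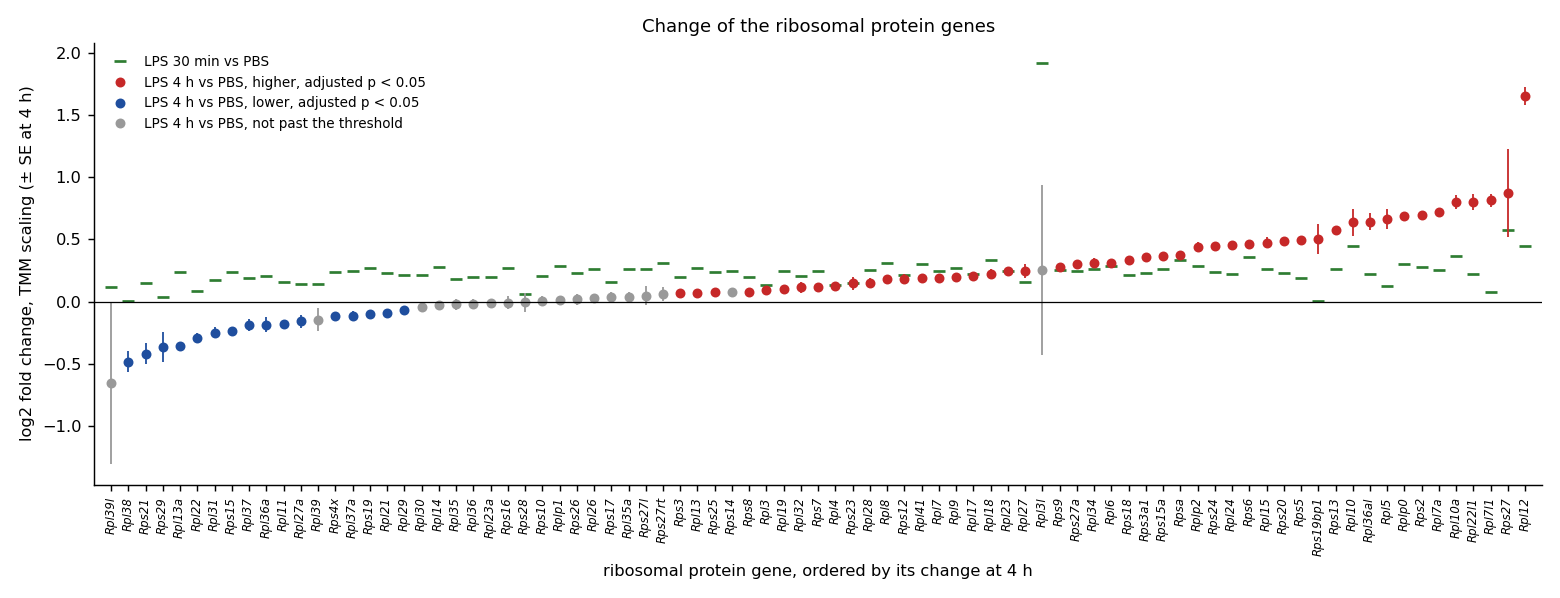
Log2 fold change with TMM scaling of the ribosomal protein genes tested and named here, ordered by the change at 4 h (dots, ± SE, red for higher, blue for lower and grey for not past the threshold), with the change at 30 min as green dashes. The dashes lie close to 0.24 for most genes, whereas the dots run from -0.66 (Rpl39l, not past the threshold) to 1.65 (Rpl12), and with library size only all dots would lie lower by about 0.70.

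The 7 genes past 1.5-fold at 4 h were Rplp0, Rps2, Rpl7a, Rpl10a, Rpl12, Rpl22l1 and Rpl7l1. Rplp0, the core protein of the stalk that recruits translation factors, had 288, 289 and 293 CPM in PBS, 290, 300 and 305 at 15 min, 352, 364 and 360 at 30 min and 473, 456 and 473 at 4 h. It was 1.61-fold higher at 4 h on this scale (log2 0.69 ± 0.03, adjusted p = 7.7e-17), with no overlap of libraries, but stood at -0.02 with library size only (adjusted p = 0.58) and had 406, 400 and 408 TPM in PBS and 361, 343 and 355 TPM at 4 h. Rps2, a small subunit protein at the mRNA entry channel, went from 312, 323 and 322 CPM to 516, 502 and 537 CPM, a change of 0.70 ± 0.03 (adjusted p = 3.6e-16), which was -0.00 with library size only. Rpl7a went from 215, 214 and 213 CPM to 357, 339 and 364 CPM, a change of 0.72 ± 0.03 (adjusted p = 1.1e-16), which was 0.02 with library size only. These 3 genes thus kept their share of the library at 4 h while the group as a whole lost part of its own.

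Of the other reference genes of the study, Actb changed by more than Rplp0 at each time and Gapdh by about as much at 4 h. Actb, cytoplasmic actin, had 1384, 1410 and 1353 CPM in PBS and 3783, 3671 and 3704 CPM at 4 h, a change of 1.43, after 0.35 at 15 min and 1.18 at 30 min. Gapdh, an enzyme of glycolysis, was lower at 15 min (-0.11, adjusted p = 0.00039), where Rplp0 stood at 0.04 and did not pass the test. It then went from 571, 567 and 582 CPM in PBS to 917, 892 and 911 CPM at 4 h, a change of 0.66 that turned to -0.04 with library size only. The ratio of Actb to Rplp0, which no scaling of a library can alter, was thus higher at 4 h than in PBS.

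At the other end stood Rpl38, Rps21, Rps29 and Rpl13a, which were among the called members with the largest falls. Rpl38, a large subunit protein known for its part in translating Hox mRNAs, had 101, 105 and 75.7 CPM in PBS, 91.8, 99.1 and 91.6 at 15 min, 94.2, 93.8 and 96.2 at 30 min and 70.7, 67.7 and 63.9 at 4 h. Its 4 h change was -0.48 ± 0.08 (adjusted p = 1.6e-05), with all 4 h libraries below the lowest PBS library. Rpl13a, the member with the highest mean TPM in PBS, stepped up at 30 min and then down at 4 h, with 552, 573 and 535 CPM in PBS, 641, 654 and 660 at 30 min and 452, 427 and 418 at 4 h (0.24 ± 0.03 and -0.36 ± 0.03, adjusted p = 1.5e-10 at 4 h). Rps21 was more variable, with 183, 164 and 149 CPM in PBS and 143, 122 and 108 CPM at 4 h (-0.42 ± 0.08, adjusted p = 0.00012). Rps29 had 144, 136 and 90.1 CPM in PBS and 111, 82.9 and 94.0 CPM at 4 h, groups that overlapped (-0.37 ± 0.12, adjusted p = 0.012), and its value ran from -0.25 without PBS replicate 1 to -0.55 without PBS replicate 3, with the call lost without PBS replicate 1, PBS replicate 2 or 4 h replicate 2. These 4 genes fell by more with library size only, from -1.06 (Rpl13a) to -1.19 (Rpl38).

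**Figure D4:**
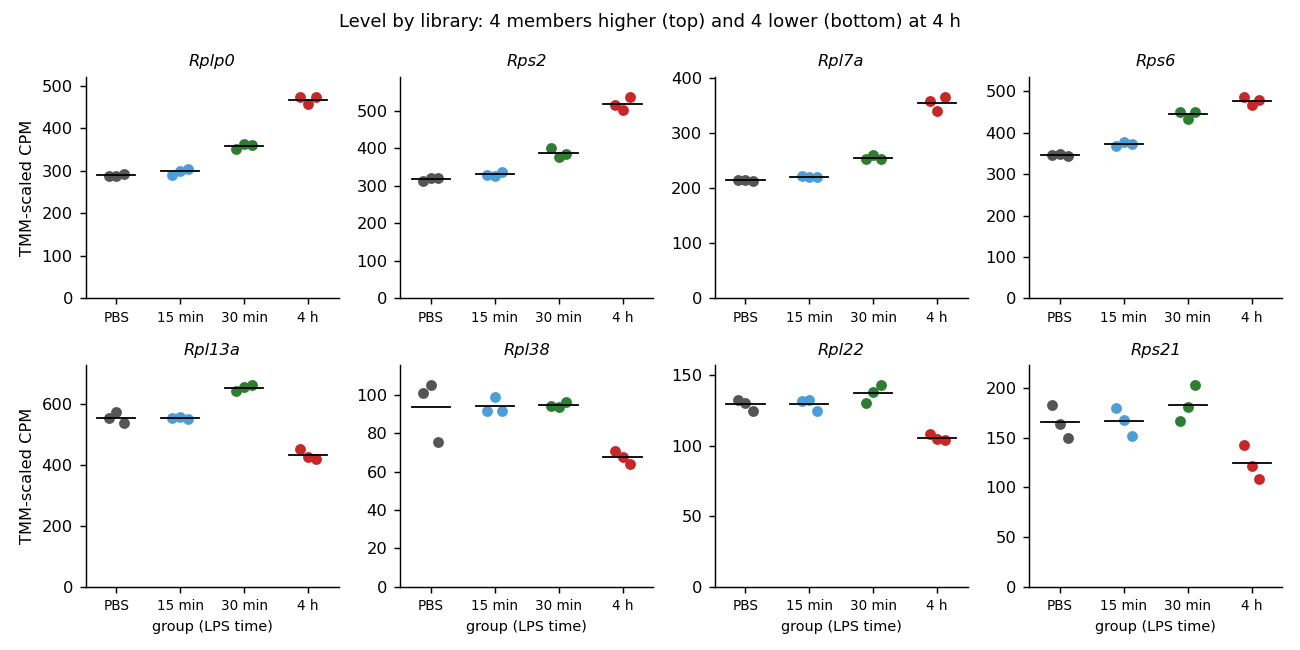
TMM-scaled counts (CPM) in the 12 libraries (dots) and the group mean (line) for 4 members that were higher at 4 h (top row: Rplp0, Rps2, Rpl7a, Rps6) and 4 that were lower (bottom row: Rpl13a, Rpl38, Rpl22, Rps21). In the top row all 4 h libraries stand above PBS and in the bottom row all stand below, and with library size only Rplp0, Rps2 and Rpl7a stood at -0.02, -0.00 and 0.02 and Rps6 at -0.24 on the log2 scale.

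The members with well-known roles outside the ribosome did not move as one. Rpl5 and Rpl11, which together with 5S ribosomal RNA bind Mdm2 and so restrain the degradation of p53, went apart at 4 h. Rpl5 rose from 28.8, 28.0 and 26.8 CPM to 44.9, 40.6 and 47.2 CPM (0.66 ± 0.08, adjusted p = 1.2e-07), and Rpl11 fell from 222, 213 and 201 CPM to 193, 186 and 182 CPM (-0.18 ± 0.04, adjusted p = 9.5e-05). Neither pair of groups overlapped, but retained-intron transcripts made up 48% of the Rpl5 counts in PBS and 57% at 4 h. Rps6 stood at 486, 466 and 480 CPM at 4 h, a rise of 0.46 ± 0.02 (adjusted p = 8.5e-14). Rps3, which also takes part in DNA repair, was at 374, 385 and 366 CPM in PBS and 407, 381 and 390 CPM at 4 h, groups that overlapped (0.07 ± 0.03, adjusted p = 0.039), and this value turned to -0.08 with upper quartile factors and was no longer called without PBS replicate 1 or 3 or 4 h replicate 1 or 3 (0.04 to 0.07). Rps19, mutated in Diamond-Blackfan anaemia, rose by 0.27 ± 0.04 at 30 min (adjusted p = 2.4e-06) and stood at -0.10 at 4 h (adjusted p = 0.019), which became -0.05 without PBS replicate 2, -0.09 without 4 h replicate 2 and -0.15 without PBS replicate 3, and the first 2 of these did not pass the test. Rpl22 had 133, 131 and 124 CPM in PBS and 108, 104 and 104 CPM at 4 h, a change of -0.29 ± 0.04 (adjusted p = 8.4e-07).

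The paralog of Rpl22 went the other way. Rpl22l1, which can take the place of Rpl22 in the ribosome, had 27.0, 29.5 and 27.4 CPM in PBS and 50.1, 50.1 and 46.1 CPM at 4 h, 1.74-fold higher (0.80 ± 0.06, adjusted p = 7.1e-11), or 0.40 on the log2 scale with protein-coding transcripts only. Rpl22 was still the more abundant of the pair at 4 h, with 323, 299 and 312 TPM against 121, 125 and 113 TPM. Rpl36al, a paralog of Rpl36a, rose from 42.3, 52.1 and 43.0 CPM to 68.7, 75.8 and 70.4 CPM (0.64 ± 0.07, adjusted p = 1.3e-08), whereas Rpl36a, named here after its value was seen, fell by 0.19 on the log2 scale. Rps27l, a target of p53, rose at 30 min (0.26 ± 0.07, adjusted p = 0.0048) and stood at 0.05 at 4 h. Rps27rt stood at 0.06 at 4 h, and Rps27 rose by 0.87 with a wide error (SE 0.35, adjusted p = 0.034), a call that was lost without PBS replicate 2 or 3 or 4 h replicate 2 (0.59 to 0.92). Of the genes that share the name without being part of the mature ribosome, Rpl7l1, which acts in the assembly of the large subunit, rose by 0.82 ± 0.05 (adjusted p = 1.6e-12) and Rps19bp1, which binds Rps19, by 0.50 ± 0.12 (adjusted p = 0.00074) at 4 h. Both were close to PBS before that (0.09 and 0.11 at 15 min, not past the test).

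The tissue-restricted paralogs were near the limit of detection. Rpl3l, known from striated muscle, had 5, 6 and 10 counts in PBS, 13, 13 and 14 at 15 min, 31, 31 and 6 at 30 min and 5, 5 and 3 at 4 h. Its call at 30 min (1.92 ± 0.55, adjusted p = 0.0086) rested on 2 of 3 libraries, the third overlapped PBS, and without either of the 2 it was lost (1.63 and 1.64). Rpl39l, known from germ cells, had 9, 12 and 10 counts in PBS and 4, 2 and 4 at 4 h, which did not pass the test (adjusted p = 0.38).

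The members differed in how they went on from 30 min to 4 h. Tested directly in the same fit, 67 of the 85 members differed between 4 h and 30 min, against 65.3% of all genes. Between 30 min and 15 min 69 differed (37.4% of all genes), and between 4 h and 15 min 60 differed (70.7% of all genes). Rplp0 was higher at 4 h than at 30 min by 0.38 ± 0.03 (adjusted p = 6.2e-12), while Rpl13a was lower by 0.59 on the log2 scale (difference -0.59 ± 0.03, adjusted p = 1.4e-14).

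Some of the members' counts came from transcripts that do not encode the protein. Transcripts annotated with a retained intron made up 2.64%, 2.75% and 2.48% of the members' counts in PBS, 3.25%, 3.17% and 3.12% at 15 min, 2.67%, 2.41% and 2.56% at 30 min and 4.33%, 4.49% and 4.53% at 4 h. The 15 min and the 4 h libraries lay above PBS and the 30 min libraries overlapped it. Rpl12, a protein at the base of the stalk, was the extreme case. Its counts rose from 19.8, 17.1 and 17.1 CPM to 27.6, 28.5 and 28.0 at 15 min, 27.0, 22.9 and 23.7 at 30 min and 55.0, 57.1 and 57.9 at 4 h (1.65 ± 0.07, adjusted p = 7.3e-16). Its coding transcripts, however, had a mean of 6.35 TPM in PBS and 3.66 TPM at 4 h, and its retained-intron and decay transcripts 24.9 TPM in PBS, 50.6 at 15 min, 33.7 at 30 min and 55.4 at 4 h. When only protein-coding transcripts were counted, a choice made after this was seen, the Rpl12 values were -0.73, -0.33 and 0.11 (adjusted p = 0.0496, 0.38 and 0.74). Its call at 15 min thus turned from higher to lower, close to the threshold. Rpl10, Rpl22l1 and Rps27 also changed by more than 0.3 with that choice at 4 h, to 0.22, 0.40 and 0.19, and Rpl5 moved from 0.66 to 0.38. Over all members, 38 were then higher and 20 lower at 4 h with a median of 0.10, against 33.2% and 31.9% of all genes. Both directions were thus still present, as they were among all genes.

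**Figure D5:**
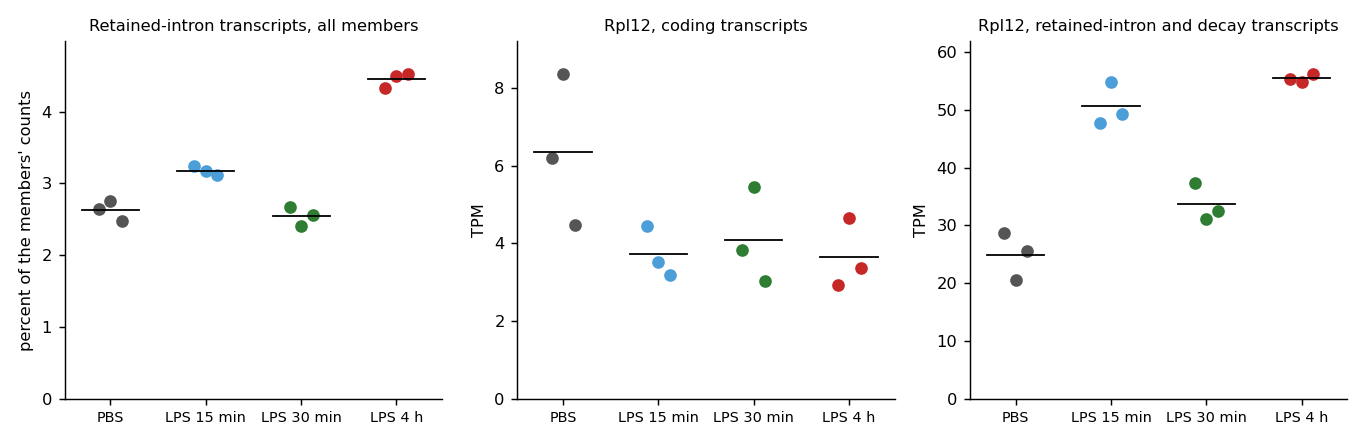
Retained-intron transcripts as percent of the members' estimated counts (left), and TPM of the coding transcripts of Rpl12 (middle) and of its retained-intron and decay transcripts (right), by library (dots) with the group mean (line). At 4 h the left and right panels stand above PBS (4.45% against 2.63% and 55.4 against 24.9 TPM), and in the middle panel the mean is lower than in PBS with libraries that overlap (3.66 against 6.35 TPM).

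Across the 77 usual genes the 4 h change went loosely with length and level. The correlation with transcript length was weak (Pearson's r = 0.33 on the log of length, Spearman's rho = 0.31). The length was that of the transcript with the most counts in PBS, of any type, so a retained-intron transcript could stand for a gene. The median log2 fold change was 0.02 for lengths of 345 to 612 bases, 0.18 for 614 to 886 bases and 0.17 for 914 to 3706 bases. The correlation with the TPM in PBS was negative (r = -0.58 on the log of TPM, rho = -0.35). At 15 min r was -0.53 but rho only -0.05. Rpl12 had the lowest TPM in PBS of the usual genes (31.3) and their largest 4 h change (1.65). Most of its TPM came from transcripts that do not encode the protein (24.9 against 6.35 in PBS). The weight of single genes in r was not tested. The same PBS libraries enter the level and the change, which by itself can push such a correlation below 0. These are descriptions across genes that share the same libraries, and genes are not independent replicates. In PBS replicate 3 the short members Rpl38, Rps28 and Rps29 had their lowest PBS values, and transcripts of 400 to 800 bases had a median effective length of 319 bases there against 349 and 347 in the other PBS libraries. Without that library the 4 h median of the members was 0.07, and its part in the relation with length was not tested.

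Fau, a ribosomal protein that is made as a fusion with a ubiquitin-like protein and whose symbol falls outside the naming rule, was called at 30 min and not at 4 h. It rose by 0.23 at 30 min and stood at 0.03 at 4 h. Among 19 other mRNAs that carry a TOP motif or belong to the translation machinery, 12 were higher and 1 lower at 30 min (19.7% and 17.2% of all genes), and 15 were higher and 3 lower at 4 h (34.9% and 33.7% of all genes). Their median at 4 h was 0.40, which turned to -0.30 with library size only. The largest rises at 4 h were those of Tpt1 (1.24), Pabpc1, the poly(A)-binding protein (1.199), and Impdh2 (1.04), and Eif3f fell most (-0.77).

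Most of the genes that build ribosomes rose at 4 h relative to the bulk of genes. Over all genes, 20.4% were higher and 18.2% lower at 15 min, 19.7% and 17.2% at 30 min, and 34.9% and 33.7% at 4 h. Of 53 ribosome biogenesis genes, 21 were higher and 1 lower at 15 min, 15 and 4 at 30 min, and 46 and 3 at 4 h, with medians of 0.14, 0.08 and 0.83. Scaled by library size only, these medians were 0.11, -0.08 and 0.13. Ltv1, a factor for export of the small subunit (2.31), Ddx21, a nucleolar RNA helicase (2.21), and Nop58, a core protein of box C/D snoRNPs (2.11), had the largest rises at 4 h, and Ubtf, a factor of RNA polymerase I, the largest fall (-0.67). Of 31 initiation factor genes, 24 were higher and 4 lower at 4 h (median 0.65, but -0.06 with library size only). Eif2s2 (2.38), Eif6 (2.01) and Eif2s1 (1.77) led, while Eif4ebp2, which binds and inhibits eIF4E, fell most (-1.19). Of 9 snoRNA host genes tested, several of which carry a TOP motif, 7 were higher and 1 lower (median 0.84, and 0.14 with library size only), led by Snhg15 (2.28). Of 17 genes on a list of translation, ribosomal RNA and signalling regulators, 10 were higher and 4 lower (median 0.40, but -0.31 with library size only). Not all of them act on translation directly. Myc stood at 5.34, Cdkn1a at 4.20, Eif2ak2 at 4.14 and Maf1 at -1.23. The medians of these lists were not tested against that of the ribosomal protein genes (0.11).

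Of 55 nuclear genes of oxidative phosphorylation, which also have short and abundant mRNAs, 32 were higher and 1 lower at 30 min (median 0.15). Over all genes 19.7% were higher and 17.2% lower at that time. At 4 h 12 of the 55 were higher and 29 lower (median -0.16), and with library size only the medians were -0.01 and -0.86. Of 78 mitochondrial ribosomal protein genes, 10 were higher and 8 lower at 30 min, and 26 were higher and 32 lower at 4 h (median -0.11), close to the 34.9% and 33.7% of all genes.

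Cell type markers moved over the same hours. Their sums are given in library CPM, whereas genes counted as higher or lower were called with TMM factors. Of all genes, 20.4% were so called higher and 18.2% lower at 15 min, 19.7% and 17.2% at 30 min, and 34.9% and 33.7% at 4 h. The summed endothelial markers (2 of 10 higher and 8 lower at 4 h) ranged from 12530 to 12806 in PBS and from 5181 to 5207 at 4 h. The pericyte markers (1 of 7 higher and 4 lower) ranged from 4389 to 4500 and from 2501 to 2594. The astrocyte markers (6 of 7 higher and 0 lower) ranged from 854 to 882 and from 999 to 1039. The erythroid markers (5 of 5 higher) ranged from 2708 to 2913 and from 4980 to 5234, and the neutrophil markers (6 of 6 tested higher) from 2.76 to 3.30 and from 140 to 143. Erythroid markers were already at 3984 to 4154 at 15 min and at 4614 to 4849 at 30 min. The choroid plexus markers were lower at 15 min (5 of 5, from 12067 to 12644 in PBS to 10631 to 11190) and higher at 30 min (4 of 5, 14220 to 14575), and at 4 h 4 of 5 were higher relative to the bulk of genes, with a sum of 12471 to 13057. The smooth muscle markers were lower at 15 min (6 of 6, from 3966 to 4024 in PBS to 2649 to 2698), and of these 6 genes 2 were higher and 3 lower at 30 min and 1 higher and 5 lower at 4 h. Of the 7 neuron markers 5 were higher at 15 min (405 to 421 in PBS, 593 to 610 at 15 min), and 7 were lower at 4 h (184 to 193). The part of these shifts in the ribosomal protein values was not tested.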

How the data were processed

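Expression was measured by RNA-seq in 12 libraries. Per the labels and the study's methods, the authors quantified paired-end reads with Salmon 1.2.1 against GRCm38.p6 and deposited, for each library, estimated counts, TPM and effective length per transcript (TPM being scaled by effective length and to a fixed library total). The authors also deposited a gene table of DESeq2-normalized counts, treated here as a signal. Per the study's methods the gene-level counts came from tximport, and whether transcript length entered the scaling of that table was not checked. Here estimated counts were summed to genes through the GENCODE M21 annotation (GRCm38.p6) and rounded. Genes passing filterByExpr (minimum count 10, total 15, share 0.7) were tested with edgeR 4.0.16 (glmQLFTest, TMM factors, all 12 libraries, R 4.3.3), and p-values were adjusted by Benjamini-Hochberg over 19150 genes, with 0.05 as threshold. glmTreat with 1.5-fold served as a second rule, and limma 3.58.1 and DESeq2 1.42.0 (local dispersion fit, because the parametric one was at the edge of convergence) as alternatives. Scripts were tested on simulated data. Depth was 18309177 to 25882028 estimated fragments per library, and the 3 libraries per group limit the precision. The members and lists were chosen with earlier results of these data known. Named were Rplp0 and the other qPCR references, Fau, members that are not usual ribosomal proteins, the 5 highest and 5 lowest in PBS TPM, the 5 largest and 5 smallest changes at each time, members past 1.5-fold, members with roles outside the ribosome, and leading genes of the other lists, and some genes that this rule names are not reported here. Cell type markers named groups of genes only. Sequences came from RefSeq tables and the GRCm38.p6 annotation.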

Additional observations from a re-analysis of the deposited data

Results flagged for a closer look

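In 12 of the members reported by name the effect of LPS had opposite signs at 2 times, each past the threshold, and the difference between the times was tested as a contrast in the same edgeR fit (Benjamini-Hochberg adjusted over all genes). All 12 were higher at 30 min and lower at 4 h, and of all 85 members tested 14 had this pair of calls. They were picked by these calls, so the outcome of the contrast was largely fixed in advance and adds no separate support. The share of all genes with such a change of sign was not counted, so whether it was more frequent among the members is not known. The difference (4 h minus 30 min, log2) was -0.59 for Rpl13a, -0.47 for Rps15, -0.42 for Rpl31, -0.39 for Rpl36a, -0.38 for Rpl37, -0.37 for Rps19, -0.36 for Rpl37a, -0.35 for Rps4x, -0.34 for Rpl11, -0.32 for Rpl21, -0.30 for Rpl27a and -0.28 for Rpl29, with adjusted p from 1.4e-14 (Rpl13a) to 6.7e-05 (Rpl27a). Rpl29 was also higher at 15 min (0.09) and lower at 4 h (-0.07), a difference of -0.16 (adjusted p = 3.1e-05). Of these genes, 8 encode proteins of the large subunit other than Rpl29, and 3 encode proteins of the small subunit. Both effects use the same PBS libraries, and the sign at 30 min of Rpl11 and Rpl27a turned with library size only. In limma on log2(TPM + 1) 11 of the 12, all but Rps19, did not stand above PBS at 30 min. With the transcript length offset and with limma on the deposited values + 1, Rpl27a was not below PBS at 4 h (0.03 and 0.02). Its call at 30 min (0.14) was also lost without any 1 library other than 30 min replicate 2 (0.07 without 30 min replicate 3, 0.22 without 30 min replicate 2). The groups of 3 libraries are too small to look for single libraries far from the others.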

How the results depend on the processing

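With library size only, 5 members were higher and 3 lower at 15 min, 40 higher at 30 min, and 1 higher and 71 lower at 4 h, with medians of 0.0060, 0.071 and -0.59. With upper quartile factors, 2 members were higher and 6 lower at 15 min and 28 higher and 35 lower at 4 h, with medians of -0.018, 0.20 and -0.033. Of all genes, upper quartile factors gave 17.2% higher and 23.5% lower at 15 min, and 29.3% and 40.9% at 4 h. With RLE factors, 6 members were higher and 2 lower at 15 min (median 0.011), against 19.0% and 20.3% of all genes. With the transcript length offset 5 were higher at 15 min, against 15.7% of all genes. With DESeq2 5 were higher and 3 lower at 15 min (median 0.011), against 11.7% and 12.5% of 32085 genes. With limma on the deposited values + 1, 3 members were higher at 15 min (median 0.00099), against 14.4% of all genes. With limma on TPM + 1, 7 members were higher and 1 lower at 15 min, against 15.6% and 13.3% of all genes. At 30 min 2 were higher and 13 lower (median -0.053), against 6.65% and 44.1% of all genes. At 4 h 1 was higher and 79 lower (median -0.75), against 12.5% and 66.4% of all genes. Protein-coding transcripts only, an alternative chosen after seeing the data, gave 1 lower member at 15 min (Rpl12), against 14.8% of all genes. Beyond 1.5-fold, 0, 0 and 7 were higher and 0 lower. Without a filter on low counts the 4 h median was 0.063. As a share of TPM, the ratios to PBS were 1.013, 0.970 and 0.583. As a share of the deposited table the 15 min ratio was 0.997. Without mitochondrially encoded genes the ratios at 15 min and 4 h were 0.997 and 0.708, and without the 100 most abundant other genes the ratios at the 3 times were 0.989, 1.090 and 0.741. Why the scalings differ was not tested.

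Leaving out each library in turn gave 6 to 11 higher and 0 to 6 lower members at 15 min (medians 0.011 to 0.046), 70 to 73 higher and 0 to 1 lower at 30 min (0.22 to 0.25), and 40 to 47 higher and 15 to 20 lower at 4 h (0.073 to 0.12), and share ratios of 0.988 to 1.011, 1.038 to 1.061 and 0.677 to 0.692. The low of 6 higher members and the 6 lower members at 15 min came without PBS replicate 3. Over all genes, leaving out a library gave 17.8% to 18.3% higher and 15.0% to 15.6% lower at 15 min. At 30 min the shares were 17.4% to 17.8% and 14.2% to 14.6%, and at 4 h 32.7% to 33.1% and 31.1% to 31.8%. With the replicate number as a replicate block, 9, 74 and 49 members were higher, against 19.9%, 19.3% and 34.6% of all genes. In that fit 0, 0 and 18 members were lower, against 17.7%, 16.7% and 33.3% of all genes. Some of the 12 calls at 15 min were thus lost. Among the members picked by the naming rule, no call changed. The numbers did not pair the samples (correlations of -0.07 to 0.05 over 18 pairs).

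Among the named genes, the direction turned under these settings. With library size only the values at 30 min were -0.0094 for Rpl11, -0.0062 for Rpl27 and -0.027 for Rpl27a, and at 4 h -0.68 for Fau, -0.043 for Gapdh, -0.065 for Rpl10, -0.46 for Rpl23, -0.46 for Rpl27, -0.059 for Rpl36al, -0.039 for Rpl5, -0.016 for Rplp0, -0.69 for Rplp1, -0.20 for Rps19bp1, -0.0030 for Rps2, -0.66 for Rps27l, -0.64 for Rps27rt, -0.64 for Rps3 and -0.24 for Rps6. With limma on TPM + 1 they were at 30 min -0.053 for Fau, -0.096 for Gapdh, -0.13 for Rpl11, -0.071 for Rpl13a, -0.11 for Rpl22l1, -0.034 for Rpl23, -0.13 for Rpl27, -0.19 for Rpl27a, -0.069 for Rpl36al, -0.19 for Rpl38, -0.26 for Rpl5, -0.030 for Rpl7a, -0.32 for Rpl7l1, -0.015 for Rps15, -0.0093 for Rps2, -0.00097 for Rps27l, -0.18 for Rps28 and -0.13 for Rps3. At 4 h they were -0.81 for Fau, -0.30 for Gapdh, -0.26 for Rpl10, -0.29 for Rpl10a, -0.19 for Rpl22l1, -0.58 for Rpl23, -0.64 for Rpl27, -0.23 for Rpl36al, -0.046 for Rpl5, -0.16 for Rpl7a, -0.16 for Rpl7l1, -0.20 for Rplp0, -0.82 for Rplp1, -0.36 for Rps19bp1, -0.17 for Rps2, -0.52 for Rps27, -0.77 for Rps27l, -0.67 for Rps27rt, -0.92 for Rps3 and -0.42 for Rps6. Upper quartile factors gave -0.12 for Fau, -0.13 for Rplp1 and -0.080 for Rps3 at 4 h. The transcript length offset gave 0.026 for Rpl27a and -0.040 for Rps3 at 4 h, and limma on the deposited values + 1 gave 0.022 for Rpl27a and -0.042 for Rps3. Protein-coding transcripts only gave -0.73 for Rpl12 at 15 min and -0.33 for Rpl12 at 30 min, and adding pseudogenes gave -0.034 for Rpl10 at 15 min. Without PBS replicate 3, Rpl38 stood at -0.12 at 30 min (0.097 without PBS replicate 2).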
